A study of Mus musculus with 18 samples.

Results

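The comparison described here is that of colon crypts from conventionally housed Ern2-/- mice with crypts from conventionally housed WT mice, with each library placed in its group by its label. It takes 6 of the 18 RNA-seq libraries of the series, 3 CONV-WT and 3 CONV-Ern2-/-, and was described across all genes of the deposited count table. The mice were C57BL/6, the Ern2-/- line is a whole-body knockout, and the conventional mice carried an SPF microbiota and, per the study's supplement, were littermates. Crypt epithelium was released from distal colon with EDTA and caught on a strainer, so each library is a mixture of the crypt's cell types. Beside these, the series holds GF-WT and GF-Ern2-/- mice, housed germ-free, and COLONIZED-WT and COLONIZED-Ern2-/- mice, which are germ-free mice given microbiota 14 days before collection, with 3 libraries each. Ages are not given in the labels.

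Ern2 encodes IRE1β, an endoplasmic reticulum (ER) stress sensor of mucosal epithelium and a relative of the ubiquitous sensor IRE1α, the product of Ern1. When unfolded proteins build up, IRE1α splices the mRNA of Xbp1, whose protein raises the folding and secretory capacity of the cell. IRE1β can hold IRE1α in check, and is itself the less active nuclease. Goblet cells, the mucus-secreting cells of the crypt, arise from progenitors in which the transcription factor Atoh1 is active and mature under Gfi1, Spdef and other factors, while cells with active Notch signalling become absorptive colonocytes.

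Total counts ranged from 5865619 to 15877968, and the libraries CONV-Ern2-/- 2, CONV-Ern2-/- 3 and CONV-WT 3 were the shallowest. CONV-WT 3 stood apart from the other WT libraries. On variance-stabilised counts its correlation across genes was 0.910 with CONV-WT 1 and 0.928 with CONV-WT 2, but 0.965 with CONV-Ern2-/- 2 and 0.958 with CONV-Ern2-/- 3, while CONV-WT 1 and CONV-WT 2 reached 0.986. Xist reads marked CONV-WT 2 and CONV-WT 3, and Y-linked reads marked CONV-WT 1 and all 3 CONV-Ern2-/- libraries, so sex was unevenly spread over the genotypes. Counts of calls in gene lists are therefore also given without CONV-WT 3 where they differ by more than 1.5 times. CONV-WT 3 was singled out by these same values, for its likeness to Ern2-/- libraries. Leaving it out widens the gap between genotypes by that choice and keeps only the deeper WT libraries. Counts and adjusted p without CONV-WT 3 are thus no independent support.

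**Figure D1:**
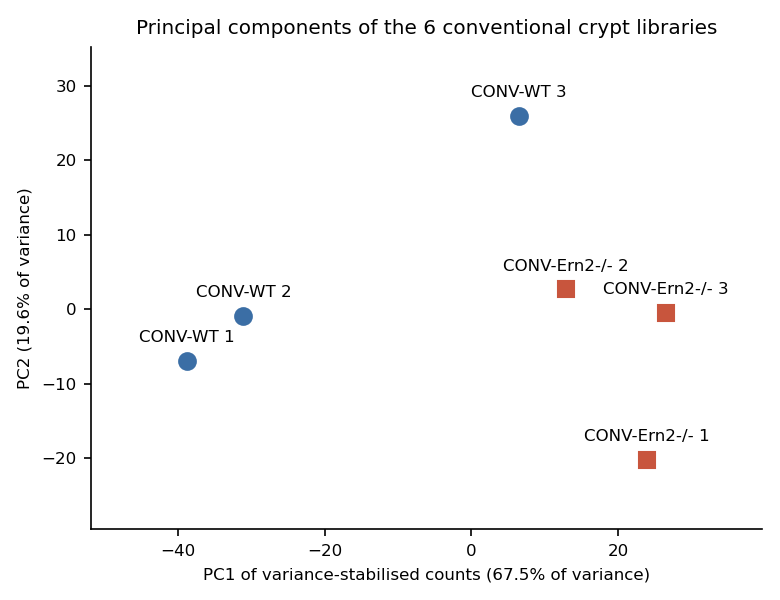
Scores of the 6 libraries on the first 2 principal components of variance-stabilised counts over the 1000 most variable genes, with circles for CONV-WT and squares for CONV-Ern2-/-. PC1 held 67.5% and PC2 19.6% of the variance, and CONV-WT 3 lies on the Ern2-/- side of PC1, away from CONV-WT 1 and CONV-WT 2.

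The targeted gene was read first. Ern2 lies at chr7:122169893-122186239 (GRCm38, mm10). Its normalized count, meaning the count divided by the size factor of the library, was 2056, 2036 and 1393 in CONV-WT 1, 2 and 3 and 668, 1071 and 977 in CONV-Ern2-/- 1, 2 and 3. The groups did not overlap, but reads at Ern2 persisted in every library labelled Ern2-/-, and the log2 fold change of -1.02 (SE 0.29) missed the threshold, with an adjusted p of 0.0129. Over fits with 1 library left out the adjusted p ran from 8.6e-05 without CONV-WT 3, where the log2 fold change was -1.18 and passed, to 0.226. On a scaling over all 18 libraries Ern2 was at 2573, 1909 and 2439 in GF-WT and 2877, 386 and 3336 in GF-Ern2-/- libraries, a log2 fold change of -0.07 with GF-Ern2-/- 2 far below the other GF libraries, and at 2695, 2412 and 2331 in COLONIZED-WT and 2567, 1324 and 1885 in COLONIZED-Ern2-/- libraries (-0.37). GF-Ern2-/- 1 and 3 thus lay above all 3 GF-WT libraries. The table counts whole genes and does not show which exons the reads came from, so the genotype is used as labelled. Of the 20 nearest genes on each side of Ern2, 26 were tested and none was called at an adjusted p under 0.01, with 7 at an unadjusted p under 0.05 in the DESeq2 test and 7 in edgeR's test (against 16.9% and 15.4% of all genes tested in each), and 3 higher and 1 lower without CONV-WT 3.

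DESeq2 called 381 of 13260 tested genes at an adjusted p under 0.01, which is 2.87%. Of these, 246 genes (1.86% of those tested) were lower and 135 (1.02%) higher in CONV-Ern2-/-. The lower calls had a median log2 fold change of -1.85 and 105 of them fell by more than 2 on the log2 scale, against a median of 1.63 and 42 genes past 2 among the higher calls. The median over all tested genes was 0.02. In 239 of the lower calls every CONV-Ern2-/- library lay under every CONV-WT library, and in all 135 higher calls every CONV-Ern2-/- library lay above, against 11.6% and 9.49% of all tested genes. With any single library left out, 109 genes were called each time, 76 lower and 33 higher, and leaving out CONV-WT 3 raised the calls to 1686 (13.1% of those tested, 7.59% higher and 5.55% lower), among them 366 of the 381. edgeR's quasi-likelihood test called 0 genes at 0.01, with 10 genes at an adjusted p under 0.05 and 1865 at an unadjusted p under 0.05, and a covariate for sex, under which the genotype difference rests on CONV-WT 1 alone, left 127 of the 381 calls. A covariate for the library total left 277. Counts of calls in the lists below stand beside these shares of all tested genes, 1.02% higher and 1.86% lower, or 7.59% and 5.55% without CONV-WT 3.

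Several secretory lineage transcription factors were reduced in CONV-Ern2-/- crypts. Of 16 tested, 7 fell and none rose, with a median log2 fold change of -1.21 for the list, and 9 fell and 0 rose without CONV-WT 3. Gfi1 (chr5:107716655-107725805), a zinc finger repressor needed for goblet and Paneth cell fate, had normalized counts of 236, 391 and 222 in CONV-WT and 38.4, 36.7 and 32.6 in CONV-Ern2-/-. All 3 knockout values were within a narrow band far below the lowest WT value, and the difference was -2.97 on the log2 scale (SE 0.35) at an adjusted p of 1.6e-13. Atoh1 (chr6:64729125-64731245), the factor that commits progenitors to the secretory lineage, was at 1038, 1216 and 824 against 287, 408 and 354, a difference of -1.56 on the log2 scale (SE 0.26) at an adjusted p of 4.2e-07. Spdef (chr17:27714446-27731003), which drives goblet cell maturation, was at 2569, 3368 and 1386 against 513, 671 and 542, a difference of -2.09 on the log2 scale (SE 0.36) at an adjusted p of 1.8e-06. Foxa3, a forkhead factor of goblet cells, fell by 1.40 (SE 0.26) on the log2 scale and Bhlha15, the Mist1 gene of professional secretory cells, fell by 1.85 (SE 0.41). In CONV-WT 3 these factors remained above every CONV-Ern2-/- library, and Gfi1, Atoh1, Spdef and Foxa3 were called with any library left out. The call was lost on leaving out 1 library for Bhlha15 (without CONV-Ern2-/- 1, CONV-Ern2-/- 3, CONV-WT 1 or CONV-WT 2, highest adjusted p 0.0282). With the sex covariate, Foxa3 and Bhlha15 had adjusted p of 0.0147 and 0.0158.

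Several products of mature goblet cells were lower too. Of 18 tested, 8 were called lower and 1 higher, with a median log2 fold change of -1.46, and 10 and 1 without CONV-WT 3. Muc2 (chr7:141690340-141754691), the gel-forming mucin of colonic mucus, had normalized counts of 148103, 127605 and 16810 in CONV-WT and 21996, 13903 and 12108 in CONV-Ern2-/-. CONV-WT 1 and 2 were far above all others, and CONV-WT 3 fell between the knockout libraries, so the groups overlapped. The log2 fold change was -2.61 (SE 0.66, adjusted p = 0.00367) and -3.11 without CONV-WT 3. Fcgbp, a mucus protein that is crosslinked to Muc2, was at 85220, 69213 and 7366 against 8255, 11668 and 8420.3, with CONV-WT 3 below all 3 knockout libraries and a difference of -2.51 on the log2 scale (SE 0.69) at an adjusted p of 0.00988. Clca3, a secreted metalloprotease-like mucus component, was at 112003, 90344 and 11969 against 2725, 9706 and 2611, and fell by 3.83 (SE 0.76, adjusted p = 5.9e-05). With the library total as a term, Muc2 was at -1.48 on the log2 scale (adjusted p = 0.0675), Fcgbp at -1.56 (adjusted p = 0.439) and Clca3 at -3.08 (adjusted p = 0.107). With 1 library left out, the call did not hold for Muc2 (without CONV-Ern2-/- 2, CONV-Ern2-/- 3, CONV-WT 1 or CONV-WT 2, highest adjusted p 0.0762), Fcgbp (without CONV-Ern2-/- 1, CONV-Ern2-/- 2, CONV-Ern2-/- 3, CONV-WT 1 or CONV-WT 2, highest adjusted p 0.136) and Clca3 (without CONV-WT 1, highest adjusted p 0.172). Fcgbp and Clca3 also missed the threshold with the sex covariate (adjusted p = 0.0116 and 0.0685).

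Some goblet genes separated the groups in all libraries. Retnlb, the resistin-like molecule secreted by goblet cells, was at 22829, 16646 and 5003 in CONV-WT and 683, 1082 and 495 in CONV-Ern2-/-, a difference of -4.30 on the log2 scale (SE 0.54) at an adjusted p of 4.4e-12. Itln1, an intelectin lectin that binds microbial glycans, was at 1080, 529.9 and 225 against 13.3, 27.9 and 23.6, a difference of -4.85 on the log2 scale (SE 0.60) at an adjusted p of 9.1e-13. Spink4, a goblet cell protease inhibitor, fell by 2.33 (SE 0.44) and Ang4, a bactericidal angiogenin, fell by 3.17 (SE 0.66, adjusted p = 0.00015, and 0.0557 with the library total as a term). Tff3, Zg16 and Agr2 did not pass the test. Tff3, the trefoil peptide packed with mucin, was at 1669.6, 1771 and 3904 against 1242, 2409.7 and 2328 (adjusted p = 0.814), Zg16, a lectin of the mucus, at 1916, 2016 and 5077 against 2375, 4483 and 4955 (adjusted p = 0.763), and Agr2, the disulphide isomerase required for Muc2 folding, at 33538, 34281 and 4703 against 10733, 9426 and 7733 (adjusted p = 0.211, and 3.8e-17 without CONV-WT 3). Guca2a, guanylin, which is made by surface epithelium as well as goblet cells, rose by 1.20 (SE 0.23), with an adjusted p of 1.7e-05 that became 0.0544 with the sex covariate. In bulk crypts fewer goblet cells and less RNA per goblet cell cannot be told apart.

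**Figure D2:**
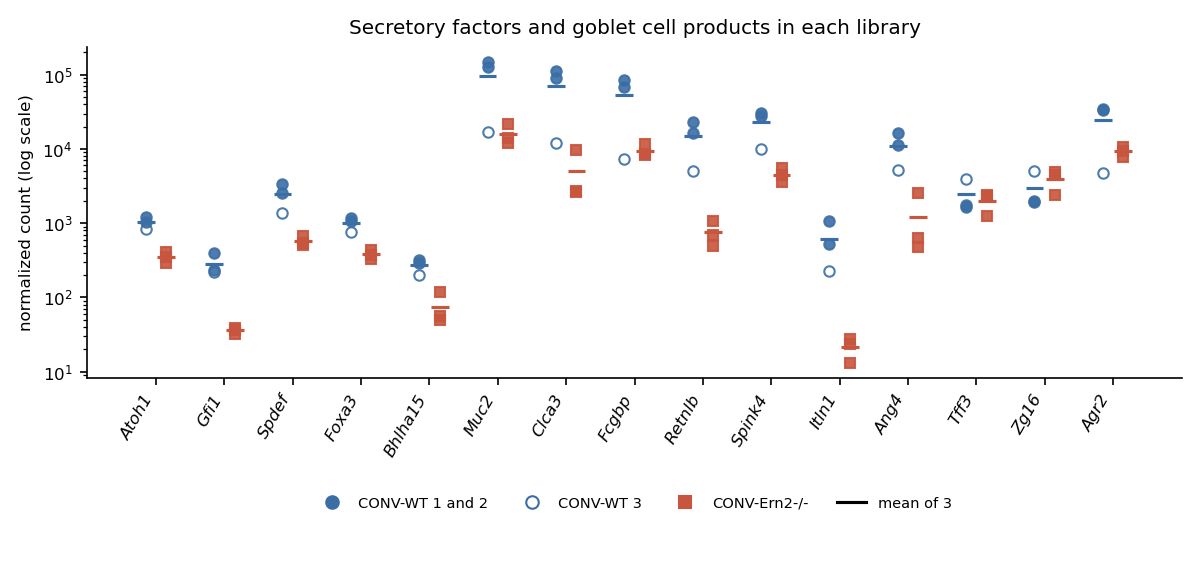
Normalized counts of secretory factors and goblet cell products in each library on a log axis, with filled circles for CONV-WT 1 and 2, an open circle for CONV-WT 3, squares for the 3 CONV-Ern2-/- libraries and a line for each group mean. The factors on the left keep CONV-WT 3 with the other WT libraries, whereas for Muc2, Fcgbp and Agr2 the open circle lies among or below the squares.

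Genes that modify and release mucin were read next, beside 1.02% of all tested genes called higher and 1.86% lower. Of 44 tested enzymes of mucin glycosylation, 3 fell. B3gnt6, the core 3 synthase of colonic mucin, fell from 339, 457 and 134 to 49.6, 47.0 and 74.3. Galnt5, which starts O-glycans, fell by 2.01 (SE 0.39), and St6gal1, a sialyltransferase, fell by 1.28 (SE 0.31). Without CONV-WT 3, 18 were called lower and 6 higher, where 5.55% and 7.59% of all tested genes were. Among 26 granule and exocytosis genes, Syt7, a calcium sensor of exocytosis, fell by 1.38 (SE 0.20) and Rab3d, a secretory granule GTPase, fell by 1.43 (SE 0.22), both with any library left out, while Unc13d, a granule priming factor, rose by 1.05 (SE 0.22). Of 44 vesicle coat genes, Copz2, a COPI subunit, fell by 2.45 (SE 0.45) and Sec24d, a COPII cargo adaptor, fell by 1.23 (SE 0.26). Without CONV-WT 3, the granule list gave 1 higher and 5 lower and the vesicle coat list 1 higher and 10 lower. St6gal1 had an adjusted p of 0.0109 with the library total as a term. Leaving out 1 library lost the call of St6gal1 (without CONV-Ern2-/- 1, CONV-Ern2-/- 3, CONV-WT 1 or CONV-WT 2, highest adjusted p 0.0959), Unc13d (without CONV-Ern2-/- 1, CONV-Ern2-/- 2, CONV-WT 1 or CONV-WT 2, highest adjusted p 0.0682) and Sec24d (without CONV-Ern2-/- 3, CONV-WT 1 or CONV-WT 2, highest adjusted p 0.0314). Under a sex covariate St6gal1, Syt7 and Unc13d missed the threshold, with adjusted p of 0.0281, 0.0137 and 0.0593.

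Lists of ER stress sensors, ATF4 and CHOP targets and translocon genes gave no calls with all 6 libraries. None of 9 sensor genes, none of 25 ATF4 and CHOP targets and none of 36 translocon and N-glycosylation genes was called, with 2, 6 and 1 at an unadjusted p under 0.05 in the DESeq2 test and 1, 4 and 0 in edgeR's test, where all tested genes gave 16.9% and 15.4%. Without CONV-WT 3, the sensor list gave 0 higher and 3 lower, the ATF4 and CHOP list 5 higher and 3 lower and the translocon list 0 higher and 14 lower, the last with a median log2 fold change of -0.69. Ern1 was at 422, 326 and 125 against 425, 207 and 138 (adjusted p = 0.921). Xbp1, whose spliced form is not resolved by whole-gene counts, was at 3018, 2832 and 1409.8 against 1783, 1242 and 1334 (adjusted p = 0.253, and 0.00014 without CONV-WT 3). Hspa5, the ER chaperone BiP, was at 13895, 10461 and 2256 against 10026, 6936 and 7372, and CONV-WT 3 lay below every other library. Ddit3, which encodes CHOP, was at 119, 135 and 241 against 120.1, 279 and 303, with overlapping groups.

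Derl3, a component of ER-associated degradation, was the called gene among 35 chaperone and degradation genes, which gave 1 higher and 7 lower without CONV-WT 3. It lies at chr10:75893398-75895941, and its normalized count rose from 23.1, 11.0 and 2.43 to 88.0, 99.8 and 87.0, a difference of 2.85 on the log2 scale (SE 0.59) at an adjusted p of 0.00014 (0.0639 with the sex covariate). All 3 knockout libraries were well above all 3 WT libraries. The call was lost on leaving out 1 library for Derl3 (without CONV-WT 2, highest adjusted p 0.0118). RefSeq promoter windows of 300 bases (GRCm38.p6), which run past the gene start, were searched on both strands for the ER stress element by its name, ERSE, for the UPR element (TGACGTGG), for its core on the reverse strand (CCACGT), for an E-box of secretory factors (CAGCTG) and a second form (CAGATG), for an HNF4 motif (CAAAGTCCA) and for the TATA box (TATAAA). An ERSE match was present in 37 of 27025 genes with a window, 0.137%, and in 0.171% of tested genes, and Derl3 was the called gene that held it. Its 120 bases at chr10:75893191-75893310, plus strand, are shown because Derl3 was the called gene with this element, with the match in capitals, and those of Sec24d at chr3:123267376-123267495, plus strand, with TGACGTGG in capitals.
Derl3: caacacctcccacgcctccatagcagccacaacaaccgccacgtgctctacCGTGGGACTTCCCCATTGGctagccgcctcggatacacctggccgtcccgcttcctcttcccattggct
Sec24d: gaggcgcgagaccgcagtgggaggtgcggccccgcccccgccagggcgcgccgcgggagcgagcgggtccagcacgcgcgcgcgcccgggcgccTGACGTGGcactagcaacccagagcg
TGACGTGG was present in 4 of 180 lower genes with a window and 0 of 115 higher genes, against 1.05% of tested genes. CCACGT was present in 17.8% of lower, 14.8% of higher and 13.3% of tested genes, CAGCTG in 23.3%, 21.7% and 18%, CAGATG in 22.2%, 18.3% and 13.6%, and TATAAA in 13.3%, 22.6% and 9.09%. Matches describe letters and not binding.

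Some absorptive colonocyte genes rose. Among 39 ion and water transport genes, 9 rose and 1 fell, with a median log2 fold change of 0.94, and 13 rose and 6 fell without CONV-WT 3. Slc26a3 (chr12:31433142-31473922), the chloride-bicarbonate exchanger of the colonic surface, was at 1586, 1431 and 2534 in CONV-WT and 12714, 6821 and 7091 in CONV-Ern2-/-, a difference of 2.26 on the log2 scale (SE 0.36) at an adjusted p of 1.7e-07. Car4, a membrane carbonic anhydrase, was at 429.6, 616 and 891 against 3173, 1922 and 1920.1, a difference of 1.86 on the log2 scale (SE 0.36) at an adjusted p of 3.9e-05. Clca6, of the calcium-activated chloride channel regulator family, was at 245, 206 and 835 against 3288, 2461 and 2194, with CONV-WT 3 the highest of the WT libraries. Slc13a2, a citrate transporter, rose by 1.37 (SE 0.27) and Slc16a5, a monocarboxylate transporter, by 1.07 (SE 0.19). Aqp8, a water channel of surface colonocytes, was at 87.5, 198 and 928 against 3519.6, 2121 and 1897 and missed the threshold at an adjusted p of 0.0107, against 2.2e-22 without CONV-WT 3. Kcnma1, the BK potassium channel, fell by 2.35 (SE 0.43). With 1 library left out, the call did not hold for Slc16a5 (without CONV-WT 1, highest adjusted p 0.0203). The sex covariate gave adjusted p of 0.0859 for Slc13a2 and 0.022 for Slc16a5.

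Of 34 brush border genes, 8 rose and none fell, with a median of 0.91, and 18 rose and 2 fell without CONV-WT 3. Alpi, intestinal alkaline phosphatase, was at 76.9, 109 and 164 in CONV-WT and 1217, 367 and 519 in CONV-Ern2-/-, a difference of 2.59 on the log2 scale (SE 0.51) at an adjusted p of 4.1e-05. Ceacam20, a microvillar adhesion protein, was at 222, 225 and 219 against 957, 826 and 497. Mep1a and Mep1b, the subunits of the protease meprin, rose by 1.63 (SE 0.38) and 1.66 (SE 0.30), and Cdhr5, a protocadherin linking microvillus tips, by 1.43 (SE 0.30). CONV-Ern2-/- 1 was the highest library for each of these. Krt20, a keratin of differentiated surface cells, was at 2025, 2544 and 9603 against 11729, 13718 and 14529, and CONV-WT 3 lay near the knockout libraries (adjusted p = 0.104, and 8.5e-31 without it). Leaving out 1 library lost the call of Mep1a (without CONV-WT 1 or CONV-WT 2, highest adjusted p 0.0391) and Cdhr5 (without CONV-WT 2, highest adjusted p 0.0123). Adjusted p with the sex covariate were 0.0277, 0.0103 and 0.0835 for Mep1a, Mep1b and Cdhr5.

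**Figure D3:**
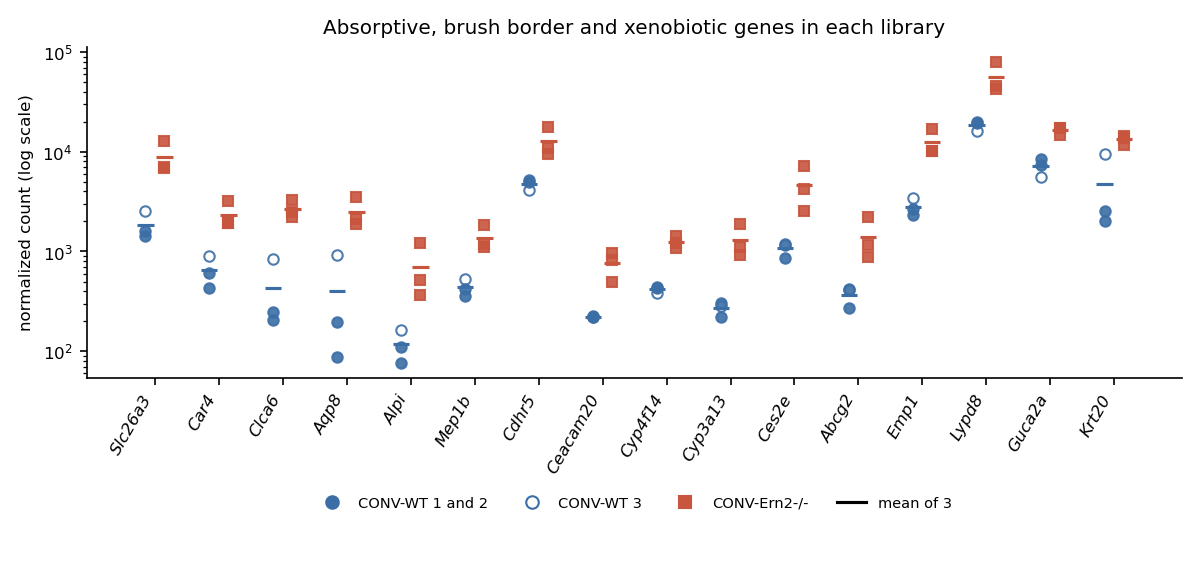
Normalized counts of absorptive, brush border and xenobiotic genes in each library on a log axis, drawn as for the secretory genes. The squares of CONV-Ern2-/- lie above every CONV-WT circle for each gene shown, with the open circle of CONV-WT 3 closest to them for Krt20.

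Some genes of xenobiotic and lipid handling also rose. Of 52 xenobiotic genes, 11 rose and none fell, with a median of 0.90, and 15 rose and 1 fell without CONV-WT 3. Cyp4f14 (chr17:32903357-32917376), a fatty acid hydroxylase, had the largest test statistic of the higher genes, at 442, 435 and 387 against 1414, 1096 and 1224, a difference of 1.56 on the log2 scale (SE 0.19) at an adjusted p of 1.1e-12. Cyp3a13, a drug-metabolising cytochrome, rose by 2.28 (SE 0.34), Abcg2, an efflux pump, by 1.95 (SE 0.40), and the carboxylesterases Ces2a and Ces2e by 2.72 (SE 0.54) and 2.11 (SE 0.40), although reads of near-identical Ces2 copies may be split between them. Of 30 lipid oxidation and lipoprotein genes 2 rose and none fell (13 and 1 without CONV-WT 3), and of 28 cholesterol and fatty acid synthesis genes 1 fell and none rose (4 and 0 without it). All tested genes gave 1.02% higher and 1.86% lower, and 7.59% and 5.55% without CONV-WT 3. Apob, the lipoprotein scaffold, rose by 2.81 (SE 0.59), and Dgat2, which makes triglyceride, by 1.81 (SE 0.33). Outside these lists, Lipa, lysosomal acid lipase, rose by 2.13 (SE 0.31) and Slc10a2, the ileal bile acid transporter, by 2.76 (SE 0.60). Among 15 barrier genes 3 rose, namely Emp1, a tetraspan membrane protein, at 2662, 2312 and 3473 against 17023, 10215 and 10226, Gdpd2 by 3.04 (SE 0.57), and Abca12, a lipid transporter, by 3.39 (SE 0.74). The barrier list gave 5 higher and 0 lower without CONV-WT 3, and Abca12 had an adjusted p of 0.0275 with the library total as a term. The call was lost on leaving out 1 library for Slc10a2 (without CONV-Ern2-/- 1, highest adjusted p 0.0199) and Abca12 (without CONV-Ern2-/- 1 or CONV-WT 3, highest adjusted p 0.0166).

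CAAAGTCCA, the letters of an HNF4 binding motif, was present in 4 of 115 higher genes with a window and 0 of 180 lower genes, against 0.542% of tested genes. The windows of Alpi, minus strand at chr1:87101607-87101726, and Slc3a1, a cystine transporter that rose by 2.00 (SE 0.39, adjusted p = 3.4e-05, and 0.0171 with the sex covariate), plus strand at chr17:85028227-85028346, are given as examples with the match in capitals.
Alpi: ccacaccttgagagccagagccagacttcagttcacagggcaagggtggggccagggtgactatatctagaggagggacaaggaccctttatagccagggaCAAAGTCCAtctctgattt
Slc3a1: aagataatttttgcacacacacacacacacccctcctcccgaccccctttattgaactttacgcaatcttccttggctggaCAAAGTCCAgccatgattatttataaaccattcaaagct

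Host defence genes moved in both directions. Of 21 antimicrobial and lectin genes 4 fell and 1 rose. Mptx1, a pentraxin, was at 135806, 122727 and 10282 against 992, 6174 and 349.9, a log2 fold change of -5.16 (SE 1.24). Pla2g4c, a phospholipase, had a log2 fold change of -3.25 (SE 0.74), and Pla2g2a, which RefSeq lists as a transcribed pseudogene, one of -3.49 (SE 0.79). Lypd8, which coats flagellated bacteria at the colonic surface, rose from 19666, 19583 and 16197 to 79437, 45217 and 42694. Reg3b and Reg3g, lectins that kill bacteria, overlapped between groups, Reg3b at 140.1, 1269.9 and 877 against 4641, 1158 and 2339 (adjusted p = 0.132) and Reg3g at 101, 562 and 263 against 1841, 509 and 974 (adjusted p = 0.0695). Their log2 fold changes of 1.83 and 1.85 became 4.28 and 3.46 with the sex covariate, where the difference rests on CONV-WT 1, the lowest library for both. Lcn2, lipocalin 2, did not exceed a normalized count of 7.30 in any library. Of 26 acute phase, oxidative and chemokine genes 2 rose and 1 fell, and 3 rose and 4 fell without CONV-WT 3. The shares of all tested genes were 1.02% higher and 1.86% lower, and 7.59% and 5.55% without CONV-WT 3. Saa1, an acute phase protein, rose from 182, 392 and 556 to 1951, 1953 and 1186, Cd274, which encodes PD-L1, from 3.13, 4.54 and 11.0 to 50.3, 27.9 and 27.2, and the chemokine Ccl6 fell by 2.92 (SE 0.52). Of 33 interferon-stimulated genes Oasl1 and Ddx60 rose and Mx1 fell, while none of 19 antigen presentation genes was called, with 5 at an unadjusted p under 0.05 in the DESeq2 test and 5 in edgeR's test (all tested genes 16.9% and 15.4%). Without CONV-WT 3, the antimicrobial list gave 4 higher and 5 lower, the interferon list 12 higher and 2 lower and the antigen presentation list 3 higher and 0 lower. With the library total as a term, the adjusted p was 0.194 for Mptx1, 0.061 for Pla2g4c, 0.0159 for Cd274 and 0.0114 for Ddx60. Duox2, a hydrogen peroxide-producing oxidase, was at 825, 885 and 228 against 635, 367 and 337. With 1 library left out, the call did not hold for Mptx1 (without CONV-Ern2-/- 1, CONV-WT 1 or CONV-WT 2, highest adjusted p 0.149), Pla2g4c (without CONV-Ern2-/- 1, CONV-WT 1 or CONV-WT 3, highest adjusted p 0.0249), Pla2g2a (without CONV-Ern2-/- 1, CONV-Ern2-/- 3, CONV-WT 1 or CONV-WT 2, highest adjusted p 0.0372), Cd274 (without CONV-Ern2-/- 1, CONV-Ern2-/- 2, CONV-Ern2-/- 3, CONV-WT 1 or CONV-WT 2, highest adjusted p 0.128), Oasl1 (without CONV-Ern2-/- 2, CONV-Ern2-/- 3, CONV-WT 1 or CONV-WT 2, highest adjusted p 0.0911), Ddx60 (without CONV-Ern2-/- 1, CONV-Ern2-/- 2, CONV-Ern2-/- 3, CONV-WT 1 or CONV-WT 2, highest adjusted p 0.0934) and Mx1 (without CONV-Ern2-/- 2, CONV-Ern2-/- 3, CONV-WT 1 or CONV-WT 2, highest adjusted p 0.0803). The calls of Mptx1, Lypd8, Cd274 and Mx1 were also lost with the sex covariate (adjusted p = 0.101, 0.034, 0.0269 and 0.0765).

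Of 27 Wnt and stem cell genes 2 fell and 1 rose, 11.1% called against 2.87% of all tested genes. Axin2, a Wnt feedback target, fell by 1.13 (SE 0.25) and Hopx, a marker of reserve stem cells, fell by 1.07 (SE 0.27), and Olfm4 rose from 1.25, 3.24 and 2.43 to 20.3, 19.1 and 23.6. Lgr5, the crypt base stem cell receptor, was at 199, 278 and 118 against 184, 93.9 and 139.6 (adjusted p = 0.607). None of 20 Notch genes was called (4 at an unadjusted p under 0.05 in the DESeq2 test, 4 in edgeR's, beside 16.9% and 15.4% of all tested genes), and Hes1, Dll1 and Dll4 had log2 fold changes of 0.08, -0.22 and -0.0095. All 25 S phase genes and all 25 G2/M genes tested had a negative log2 fold change, with medians of -0.65 and -0.45, but of these Gins2, a replication helicase subunit, was the gene that passed, and it fell by 0.95 (SE 0.22). At an unadjusted p under 0.05 stood 16 S phase and 9 G2/M genes in the DESeq2 test and 14 and 9 in edgeR's test, above the 16.9% and 15.4% of all tested genes that stood there. Mki67 was at 5109, 4353 and 1353 against 4321, 2113 and 2223, with CONV-WT 3 the lowest library. Without CONV-WT 3, the Wnt and stem cell list gave 1 higher and 8 lower, the Notch list 1 higher and 3 lower, the S phase list 0 higher and 4 lower and the G2/M list 0 higher and 7 lower. Hopx had an adjusted p of 0.0155 with the library total as a term. Leaving out 1 library lost the call of Axin2 (without CONV-Ern2-/- 2, CONV-Ern2-/- 3, CONV-WT 1 or CONV-WT 2, highest adjusted p 0.0761), Hopx (without CONV-Ern2-/- 1, CONV-Ern2-/- 2, CONV-Ern2-/- 3, CONV-WT 1 or CONV-WT 2, highest adjusted p 0.145), Olfm4 (without CONV-Ern2-/- 1, CONV-Ern2-/- 2, CONV-Ern2-/- 3, CONV-WT 1 or CONV-WT 2, highest adjusted p 0.0638) and Gins2 (without CONV-Ern2-/- 1, CONV-Ern2-/- 2, CONV-Ern2-/- 3, CONV-WT 1 or CONV-WT 2, highest adjusted p 0.127). Chga, of enteroendocrine cells, and Dclk1, of tuft cells, had adjusted p of 0.416 and 0.887, and no member of the enteroendocrine or tuft identity lists was called, with 2 and 2 at an unadjusted p under 0.05 in the DESeq2 test and 1 and 1 in edgeR's test, of 23 and 25 tested. Without CONV-WT 3 they gave 3 higher and 2 lower, and 0 higher and 0 lower. With sex as a term, Axin2, Hopx, Olfm4 and Gins2 had adjusted p of 0.0778, 0.178, 0.0627 and 0.257.

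Several of the lower genes with the largest test statistics lie outside the lists above, although Hpd is in the goblet signature. Chrm1, given with them, was named through the goblet signature and not by its test statistic. Ffar2 (chr7:30818031-30823775), the short-chain fatty acid receptor, had the largest test statistic of all, at 522, 785 and 633 against 120.1, 138 and 103, a difference of -2.42 on the log2 scale (SE 0.26) at an adjusted p of 5.9e-16. Rab15, a small GTPase of membrane traffic, was at 3635, 2886 and 3436 against 825, 1052 and 836, and Anxa13, an intestinal annexin, at 321, 348 and 351 against 71.2, 91.0 and 96.1. Clps, colipase, was at 1013, 676 and 282 against 25.1, 55.8 and 18.1, Hpd, a tyrosine-degrading dioxygenase, at 1379.5, 1386 and 922 against 240.2, 330.2 and 232, and Chrm1, a muscarinic receptor, at 245, 238 and 183 against 64.9, 57.2 and 43.5. In each of these the libraries of the genotypes did not overlap and CONV-WT 3 lay with or near the other WT libraries. Of 4 tested genes of the imprinted Dlk1-Dio3 region 3 were called lower, against 1.86% of all tested genes. These were the long non-coding RNAs Meg3, Rian and Mirg. Meg3 (chr12:109540996-109571729) was at 853, 1971 and 489 against 6.29, 55.8 and 16.3, a difference of -5.42 on the log2 scale (SE 0.75) at an adjusted p of 4.2e-10, and Rian at 346, 549 and 75.5 against 1.40, 4.40 and 5.44. Mirg was at 38.8, 79.8 and 3.65 against 0, 0 and 0, and none of 10 other imprinted genes was called, with 2 at an unadjusted p under 0.05 in the DESeq2 test and 0 in edgeR's test (all tested genes 16.9% and 15.4%), and 1 higher and 0 lower without CONV-WT 3. The call was lost on leaving out 1 library for Mirg (without CONV-WT 1 or CONV-WT 2, highest adjusted p 0.48). Meg3 and Mirg had adjusted p of 0.0368 and 0.305 with the sex covariate.

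**Figure D4:**
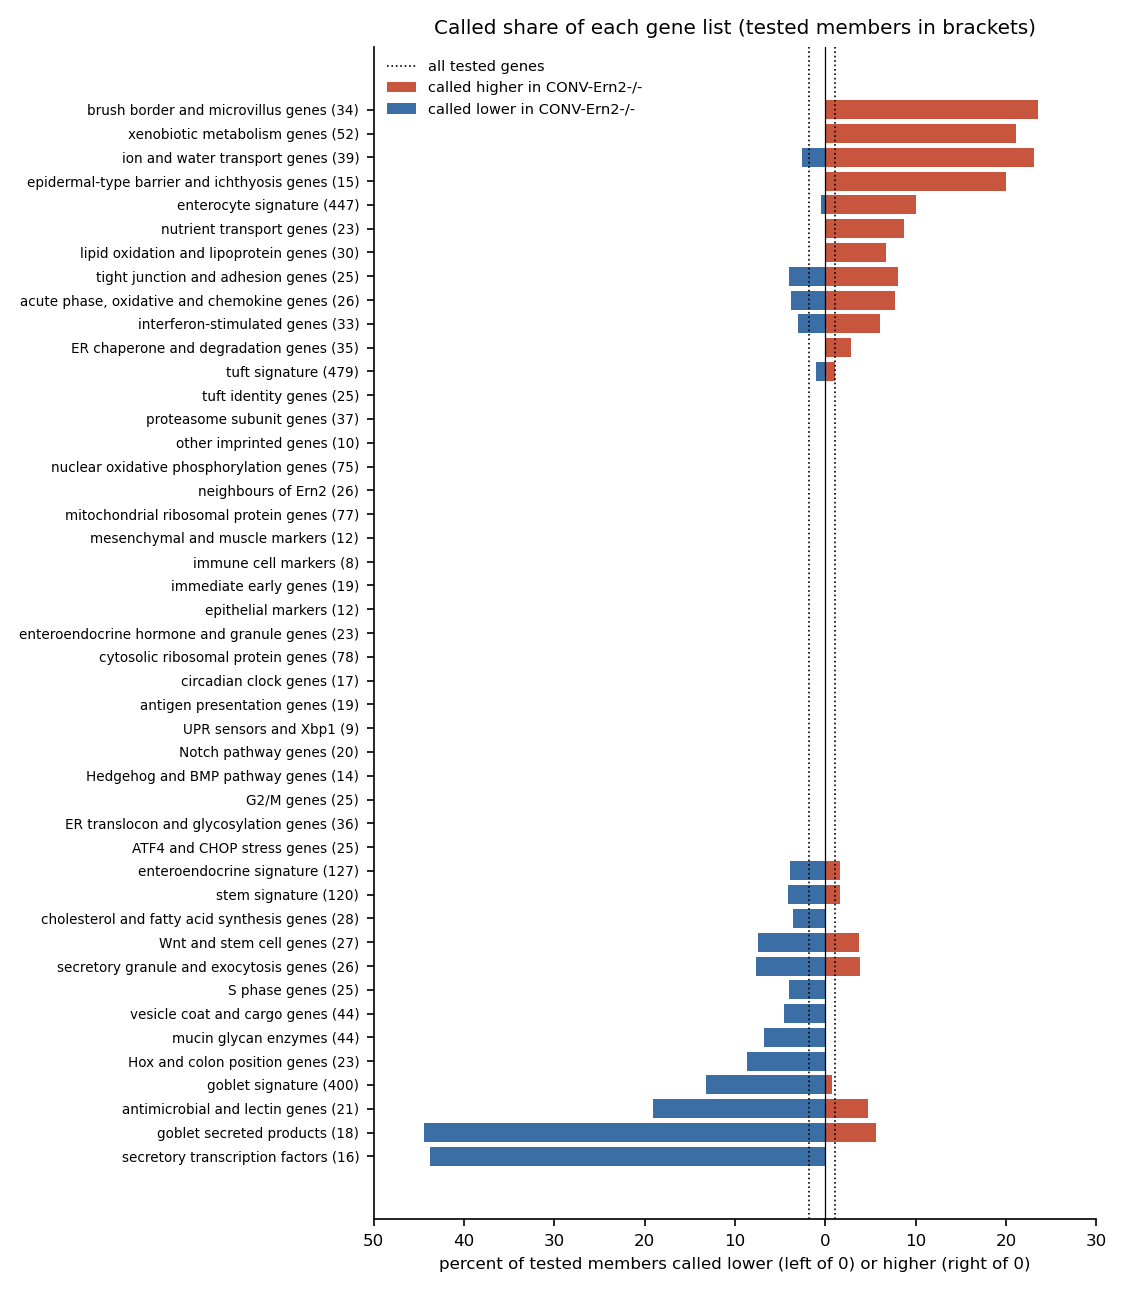
Share of tested members called higher (right of 0) or lower (left of 0) in CONV-Ern2-/- for each gene list with 8 or more tested members, in percent, with the number tested in brackets and dotted lines at the shares of all tested genes. Secretory factors and goblet products reach furthest left and brush border, ion transport and xenobiotic genes furthest right.

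Markers of cells other than epithelium were low in all libraries. The summed normalized count of 18 immune markers was 211, 279 and 117 in CONV-WT and 191, 145 and 241 in CONV-Ern2-/-, that of 14 mesenchymal and muscle markers 174, 168 and 402 and 159, 308 and 383, and that of 12 epithelial markers 129634, 114285 and 126844 and 159587, 171631 and 171162. No member of these lists was called, with 1, 0 and 3 at an unadjusted p under 0.05 in the DESeq2 test and 1, 0 and 1 in edgeR's test, of 8, 12 and 12 tested, beside 16.9% and 15.4% of all tested genes. The epithelial markers gave, without CONV-WT 3, 2 higher and 0 lower and the other 2 lists 0, and their part in the results above was not tested. Over cell signatures that the study took from a single-cell atlas, whose goblet list held only genes with a value in these samples and is thus not independent evidence, 53 of 400 goblet genes fell and 3 rose, and 45 of 447 enterocyte genes rose and 2 fell. Without CONV-WT 3 the goblet signature gave 12 higher and 164 lower and the enterocyte signature 169 higher and 3 lower. The median log2 fold changes over all 6 libraries were -0.47 and 0.57. Of the study's other signatures, the stem signature gave 2 higher and 5 lower of 120, the enteroendocrine 2 higher and 5 lower of 127 and the tuft 5 higher and 5 lower of 479, against 7 higher and 27 lower, 7 higher and 10 lower, and 56 higher and 40 lower without CONV-WT 3. Of all tested genes 1.02% were called higher and 1.86% lower, and 7.59% and 5.55% without CONV-WT 3. The tuft signature held 1.04% in each direction with all 6 libraries.

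The genotype difference of conventional mice was set beside those of the GF and COLONIZED mice, which share no libraries with it. Of the 245 lower genes with a value in GF mice 216 were also below WT there, 88.2% against 46.2% of all tested genes, but the median was -0.37 and 2 were called. In COLONIZED mice 237 of 246 were below WT, 96.3% against 51.3% of all tested genes, with a median of -0.62, and 54 were called lower, against 0.75% of all genes tested there and 0.0233% in GF mice. Of the 135 higher genes, 92 were above WT in GF mice (68.1% against 53.8%) and 106 in COLONIZED mice (78.5% against 48.7%). Among them, 0 and 5 were called higher in GF and COLONIZED mice, against 0.0116% and 0.449% of all genes tested there (in both directions 0.0349% and 1.2%). Retnlb, Itln1 and Ang4 had log2 fold changes of -4.45, -3.34 and -4.31 in COLONIZED mice. In GF mice theirs were -1.10 (SE 0.34), 0.12 (SE 0.64) and -1.48 (SE 0.98), and none was called. These genes were low in GF-WT, which leaves little room for a fall there. On the scaling over all 18 libraries, GF-WT had 172, 329 and 376 for Retnlb, 20.0, 28.7 and 16.7 for Itln1 and 122, 96.0 and 733 for Ang4. COLONIZED-WT had 9397, 4448 and 8226, 291, 147 and 287, and 4990, 3222 and 7265. B3gnt6 had -2.46 in CONV, -2.31 in GF and -2.32 in COLONIZED mice.

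A test of the difference between genotype differences found 23 genes between CONV and GF mice (0.177% of those tested) and 40 between CONV and COLONIZED mice (0.325%), and edgeR's test found 0 in each, with 957 and 1655 genes at an unadjusted p under 0.05. Gfi1 passed in both, with a log2 fold change of -2.97 in CONV, -0.36 in GF and -0.95 in COLONIZED mice. Anxa13, Itln1 and Retnlb passed against GF mice and Ffar2, Car4 and Guca2a against COLONIZED mice. The shares with a difference above and below 0 were 0.0537% and 0.123% of the genes tested against GF mice and 0.154% and 0.171% against COLONIZED mice. Without CONV-WT 3 the counts were 287 and 1231, and over all single libraries left out they ranged from 3 to 287 and from 0 to 1231. Uty, Kdm5d and Ddx3y, Y-linked genes named after their values were seen, are 3 of the 23 genes against GF mice. Xist reads marked all 3 GF-WT libraries, and Y-linked reads marked GF-Ern2-/- 1 and 2, COLONIZED-WT 1 and 3, and COLONIZED-Ern2-/- 1 and 2. The part of sex in these counts was not tested.

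**Figure D5:**
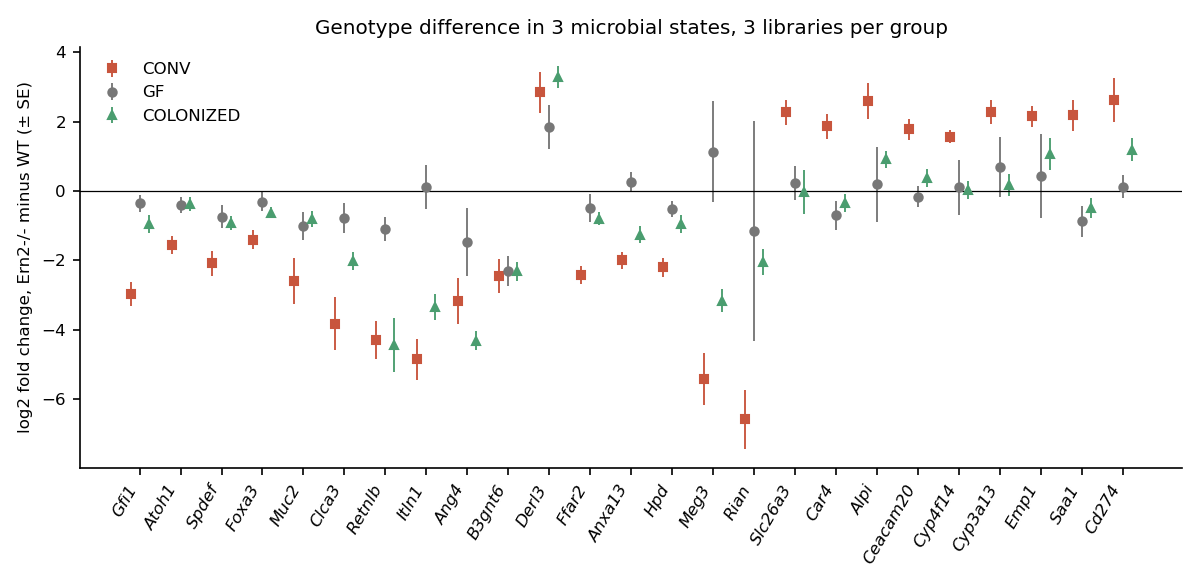
Log2 fold change of Ern2-/- over WT with its standard error for selected genes in CONV (squares), GF (circles) and COLONIZED (triangles) mice, 3 libraries per group. Gfi1, Slc26a3 and Alpi each lie farther from 0 in CONV than in GF or COLONIZED, whereas B3gnt6 lies between -2.46 and -2.31 in all 3 states. In the DESeq2 test of the difference between genotype differences, Gfi1 passed against both other states. Slc26a3 and Alpi passed against neither, with adjusted p of 0.205 and 0.431 against GF and 0.0429 and 0.125 against COLONIZED mice. The GF values of Meg3 (SE 1.45) and Rian (SE 3.18) rest on counts near 0. On the scaling over all 18 libraries, GF-WT had 1.54, 0 and 4.17 for Meg3 and 1.54, 0.70 and 0 for Rian.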

How the data were processed

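The study sequenced colon crypt RNA as 18 single-end stranded mRNA libraries, and the authors aligned reads with STAR to mm10 and deposited raw counts per gene for all libraries. Their own comparisons used DESeq2. From the deposited counts, the 6 conventional libraries were fitted with DESeq2 1.42.0 in R 4.3.3, with a Wald test and Benjamini-Hochberg adjustment. The threshold on the adjusted p was 0.01, the one given in the study's methods. Interaction fits over 12 libraries compared genotype differences between housing states. edgeR 4.0.16 quasi-likelihood tests and the other alternatives are in the closing section. Genes without a DESeq2 adjusted p were not tested. Named genes were the 15 with the largest Wald statistics in each direction, up to 5 called members per list and direction, and a fixed set. Libraries were grouped by their labels, and the comparison, lists and named genes were chosen with earlier results of these data known. The labels list separate samples without saying how many mice each came from, so p-values measure the spread between these samples. Total counts per library were 5865619 to 15877968, and genes with few counts are measured least precisely.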

Additional observations from a re-analysis of the deposited data

Results flagged for a closer look

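The genotype difference in CONV mice differed from that in another housing state for the named genes below, by the DESeq2 interaction test at an adjusted p under 0.01. Values are the log2 genotype difference in CONV minus that in the other state. Against GF mice the difference was -2.61 for Gfi1, -2.24 for Anxa13, -4.96 for Itln1, -1.49 for Pla2g16, -3.20 for Clps, -1.69 for Hpd, -3.20 for Retnlb, 1.94 for Ceacam20, -1.53 for Rasd1, 2.59 for Cd274, 3.05 for Saa1 and 2.17 for Mfsd7a. Against COLONIZED mice it was -1.63 for Ffar2, 1.35 for Guca2a, 2.68 for Saa1, -4.56 for Rian, 2.20 for Car4, -2.02 for Gfi1, 1.56 for Mfsd7a and 1.39 for Cdhr5. Saa1, Gfi1 and Mfsd7a passed against both states. WT levels themselves differed between states for some of these genes. On the scaling over all 18 libraries, GF-WT had 20.0, 28.7 and 16.7 for Itln1, 6397, 13102 and 25696 for Saa1 and 41.5, 42.0 and 50.7 for Cd274. On the scaling of the 6 libraries, CONV-WT had 1080, 529.9 and 225, 182, 392 and 556, and 3.13, 4.54 and 11.0. edgeR's interaction test called 0 genes at an adjusted p under 0.01 in either, with 957 and 1655 at an unadjusted p under 0.05.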

How the results depend on the processing

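Counts below give all calls, then those higher and lower, against 381, 135 and 246 in the main fit. They were 705, 263 and 442 at an adjusted p under 0.05, 0, 0 and 0 with edgeR's quasi-likelihood test, 703, 215 and 488 in 1 fit over all 18 libraries, 575, 368 and 207 under a library total covariate and 239, 157 and 82 under a sex covariate. Leaving out 1 library gave from 126 to 1686 calls, 45 to 974 higher and 81 to 712 lower, the largest counts without CONV-WT 3. The genotype differences between CONV and GF mice numbered 73 at 0.05, 0 with edgeR and 3 to 287 with 1 library left out, and those between CONV and COLONIZED mice 175, 0 and 0 to 1231. The share higher among calls moved from 35.4% to 64.0%, 51.2%, 65.7% and 57.8% with the library total, the replicate block, sex and without CONV-WT 3. The labels do not say that replicate numbers pair animals. Correlations of deviations were 0.34, -0.24 and 0.34 for like numbers and -0.43 to 0.29 for unlike numbers. With 3 libraries per group these cannot decide whether samples were paired. The replicate block gave 447, 229 and 218 calls and 41 and 58 interaction calls. The count filter, TMM factors, no independent filtering and no Cook's filter kept every CONV count within 1.5 times. Of 109 called named genes, 51 lost their call under the sex covariate, 21 under the library total covariate, 23 in the fit over 18 libraries and 16 under the replicate block, and none changed sign. Among genes not called, log2 fold changes turned sign with the library total (Ddit3 -0.0727, Dll1 0.24, Dll4 0.38, Duox2 0.19, Ern1 0.50, Hes1 -0.26, Hspa5 0.71, Mki67 0.40, Zg16 -0.0772), sex (Dclk1 -0.0829, Tff3 0.25) and the replicate block (Dll4 0.0443, Hspa5 0.18), and over left-out libraries ranged for Dclk1 from -0.17 to 0.46, for Dll1 from -0.79 to 0.0198, for Dll4 from -0.30 to 0.33, for Ern1 from -0.77 to 0.19, for Hes1 from -0.0746 to 0.31, for Hspa5 from -0.59 to 0.35, for Mki67 from -0.74 to 0.0193, for Tff3 from -0.51 to 0.21. The cause was not tested. The part of library depth in calls of genes with few counts was likewise not tested.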
